A study of Homo sapiens with 36 samples.

Results

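Control cells of 2 human neuroblastoma lines, BE(2)-C and IMR-32, were compared with each other. The 6 BE(2)-C arrays and the 6 IMR-32 arrays that the labels give as Neg Co. No. 1 were chosen by their labels, 12 of the 36 arrays of a study of the histone deacetylase HDAC11, and none of the 24 arrays of HDAC11 siRNA entered the comparison. The cells of all 12 arrays had received the negative control siRNA AllStars with the HiPerfect reagent and were harvested 42, 48 or 54 h later, with 2 replicates per line and time. RNA was labelled and hybridised to Illumina BeadChips, and each value is the brightness of a probe, which was quantile-normalized over the 12 arrays and is called its signal here. The design text calls the replicates biological, but nothing says that they came from separate cultures, so that p-values measure only the spread between these arrays. Culture, labelling and slide are not separated from the cell line by any label, and a batch of that kind cannot be told apart from the line.

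Neuroblastoma is a childhood tumour of the sympathoadrenal lineage, the neural crest cells that form sympathetic neurons and the adrenal medulla. Cells of this lineage are set up by a group of transcription factors, make noradrenaline from tyrosine in a chain of enzymes, and pack it with granins and neuropeptides into dense-core vesicles. Both lines stand for the high-risk disease with amplified MYCN and lost heterozygosity on the short arm of chromosome 1. BE(2)-C is a clone from a marrow metastasis taken after chemotherapy, and its only p53 allele carries a mutation that leaves the protein without function. IMR-32 carries a partial amplification of ALK, a receptor tyrosine kinase, with constant kinase activity. Each line is a single cell line, so that a difference between them is one between these cultures and not between classes of tumour.

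Detection of a probe required a detection p under 0.01 together with a signal higher than the middle of that array's background. Between 17496 and 18452 probes were detected per BE(2)-C array and between 18861 and 19477 per IMR-32 array, of 47323. All 10 sympathoadrenal markers on the array were detected on all 12 arrays, with summed signals of 42230 to 50420 in BE(2)-C and 13450 to 14370 in IMR-32 cells. Of the defining markers of other cells, 2 of Schwann cells and 3 of endothelium were detected on no array. Of 3 of leukocytes, CD14 was detected on all BE(2)-C arrays but not on all IMR-32 arrays. Of 4 of epithelium, EPCAM and KRT18 were detected on some arrays, and none on all arrays of a line. In longer lists of such genes, NGFR and CD34 were detected on all IMR-32 arrays and CD68 on all 12. The summed signals of 5 fibroblast markers were 1211 to 1469 in BE(2)-C and 548 to 622 in IMR-32 cells. Of 5 mesenchymal markers, 2 were detected on all BE(2)-C arrays, 1 on all IMR-32 arrays and 2 on no array. Arrays of different lines correlated at r = 0.929 to 0.944 over all probes, BE(2)-C arrays at 0.979 to 0.992 among themselves and IMR-32 arrays at 0.993 to 0.994. One array stood apart, replicate 1 of BE(2)-C at 54 h, with r = 0.979 to 0.986 to the other BE(2)-C arrays, which had at least 0.989 among themselves.

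The 2 lines differed widely. Of 20045 genes, each read by its brightest probe, 3717 (18.5%) were higher and 4117 (20.5%) were lower in BE(2)-C than in IMR-32 cells (limma with time as a block, Benjamini-Hochberg adjusted p under 0.05). With a difference of at least 2-fold as well, 595 genes (2.97%) were higher and 809 (4.04%) lower. The 6 BE(2)-C arrays and the 6 IMR-32 arrays did not overlap in any of these 1404 genes, and each had the same direction at 42, 48 and 54 h. Because these genes were chosen by fold and adjusted p on the same arrays, neither count is separate support. Differences over 16-fold were found for 16 genes that were higher and 22 that were lower in BE(2)-C. Detection on every array of one line and none of the other was seen for 196 genes with BE(2)-C as the detecting line and for 445 with IMR-32. The balance of directions depended on the scaling: after scaling of the arrays to a common median, without quantile normalization, the counts were 2796 higher and 4656 lower, or 463 and 1002 with at least 2-fold, because the median difference of genes detected on all arrays moved to -0.10 in log2 from 0.018. All 1404 genes passed the adjusted p again in the same direction under that scaling, with no minimum fold.

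**Figure D1:**
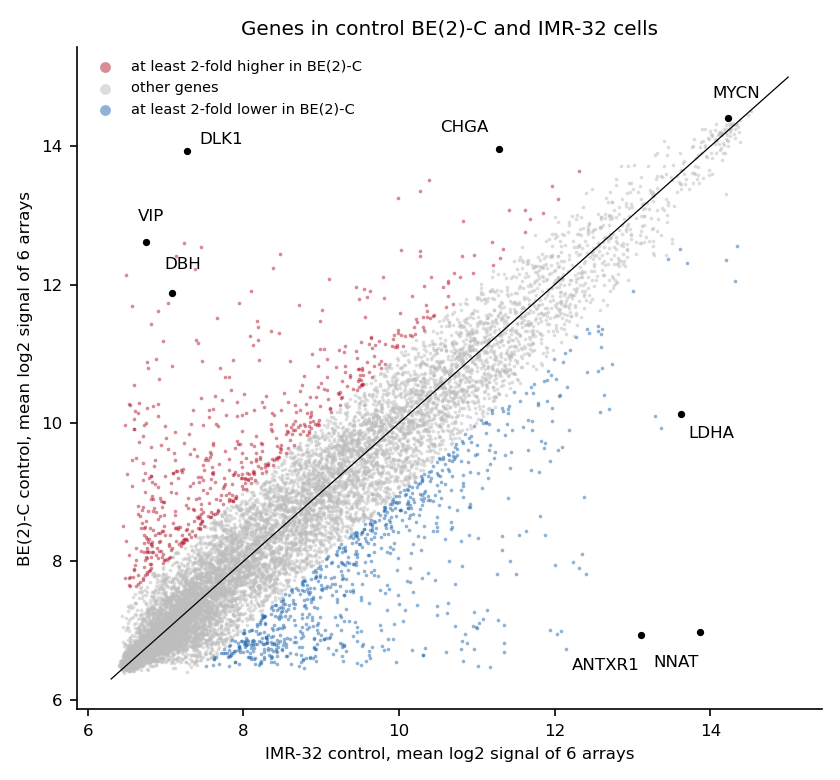
Each point is a gene, with its mean log2 signal over the 6 IMR-32 control arrays on the x axis and over the 6 BE(2)-C control arrays on the y axis. The line marks equal signals, 595 genes are coloured as at least 2-fold higher and 809 as at least 2-fold lower in BE(2)-C, and DLK1 (log2 difference 6.65) and NNAT (-6.89) lie farthest from the line while MYCN (0.17) lies beside it.

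The largest fitted difference toward BE(2)-C was that of DLK1, an imprinted gene for a transmembrane protein related to Notch ligands. Its signals were 14606, 15169 and 18528 in BE(2)-C cells (lowest, median and highest of 6 arrays, as in all such triplets here), against 139.7, 156 and 172 in IMR-32 cells, a log2 difference of 6.65 ± 0.064 (BE(2)-C minus IMR-32, with its standard error, n = 6 arrays each; limma adjusted p = 9.86e-27). Where only some of the 6 arrays of the dimmer line detected a gene, their number follows its difference, which then rests on signals near the background. The lines were also far apart in VIP, the vasoactive intestinal peptide, though less than in DLK1. Its signals were 5602, 6261 and 7269 in BE(2)-C and 94.7, 105 and 133 in IMR-32 cells (5.88 ± 0.073, 1 of 6 arrays, adjusted p = 5.96e-25). Biglycan (BGN), a small matrix proteoglycan, had signals of 5012, 6509 and 7118 in BE(2)-C, against 139.7, 148 and 168 in IMR-32 cells (5.36 ± 0.077). In each of these the lowest BE(2)-C array lay far above the highest IMR-32 array, though genes with overlap could not enter the 20 largest differences.

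For genes that no array of the dimmer line detected, the difference is only a bound. On each dimmer array it was computed against the lowest signal of any detected probe or the gene's own signal, whichever was higher. LAMP5, a neuronal member of the lysosomal membrane proteins, was at least 39.5-fold higher in BE(2)-C, with signals of 3956, 4501 and 5374, against 86.5, 90.1 and 96.3 in IMR-32 cells. RGS5, a regulator of G protein signalling, was at least 29.0-fold higher, RELN, the extracellular guidance protein reelin, at least 23.9-fold and SCG5, a chaperone of a prohormone convertase, at least 13.1-fold. Other members of the 20 largest differences were CRIP1 (log2 difference 5.27 ± 0.066, 3 of 6 arrays), the adaptor DOK4 (5.09 ± 0.10), the neuronal vesicle protein NSG2 (4.85 ± 0.071), the integrin subunit ITGB5 (4.71 ± 0.086, 1 of 6 arrays), the potassium channel KCNT1 (4.21 ± 0.11, 5 of 6 arrays), RGS4 (3.97 ± 0.061) and the long noncoding RNA MEG3 (3.87 ± 0.13). DLK1 and MEG3 lie in the same imprinted cluster on chromosome 14, and both were higher in BE(2)-C.

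NNAT, an imprinted gene for a small membrane protein of developing neurons, had the largest fitted difference toward IMR-32, against a signal near the background. Its signals were 118, 125 and 137 in BE(2)-C, where 1 of 6 arrays detected it, and 13916, 15000.0 and 15871 in IMR-32 cells (log2 difference -6.89 ± 0.062, adjusted p = 3.94e-27). ANTXR1, an anthrax toxin receptor that binds collagen, had signals of 103, 122 and 161 in BE(2)-C and 8413, 8715 and 9466 in IMR-32 cells (-6.18 ± 0.081, 2 of 6 arrays). That the arrays of the lines did not overlap was a condition for both genes to be ranked.

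Several developmental transcription factors were among the 20 genes with the largest difference toward IMR-32. ZIC2, a zinc finger factor of the neural plate, had signals of 88.2, 122 and 155 in BE(2)-C and 3927, 4165 and 4518 in IMR-32 cells (-5.08 ± 0.096, 2 of 6 arrays). NEUROG2, a proneural bHLH factor, had 119.6, 137 and 152 in BE(2)-C and 2405, 2500.5 and 3074 in IMR-32 cells (-4.27 ± 0.073, 3 of 6 arrays), and NHLH2, a bHLH factor of postmitotic neurons, was at least 19.9-fold lower in BE(2)-C. Secreted and membrane proteins made up most of the rest: the protease inhibitor SERPINE2 (-4.94 ± 0.059, 3 of 6 arrays), the microfibril protein MFAP4 (-4.57 ± 0.087), NELL2 (at least 22.3-fold lower), the neuropeptide NPW (at least 17.2-fold), FAM162B (at least 38.7-fold), TMEM98 (at least 22.5-fold) and RTN1, a neuroendocrine reticulon (at least 15.7-fold). RAI14 (-5.09 ± 0.063, 4 of 6 arrays), the thymosin TMSB15A (-4.41 ± 0.065) and the potassium channel subunit KCNG1 (-4.06 ± 0.072) were lower as well.

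**Figure D2:**
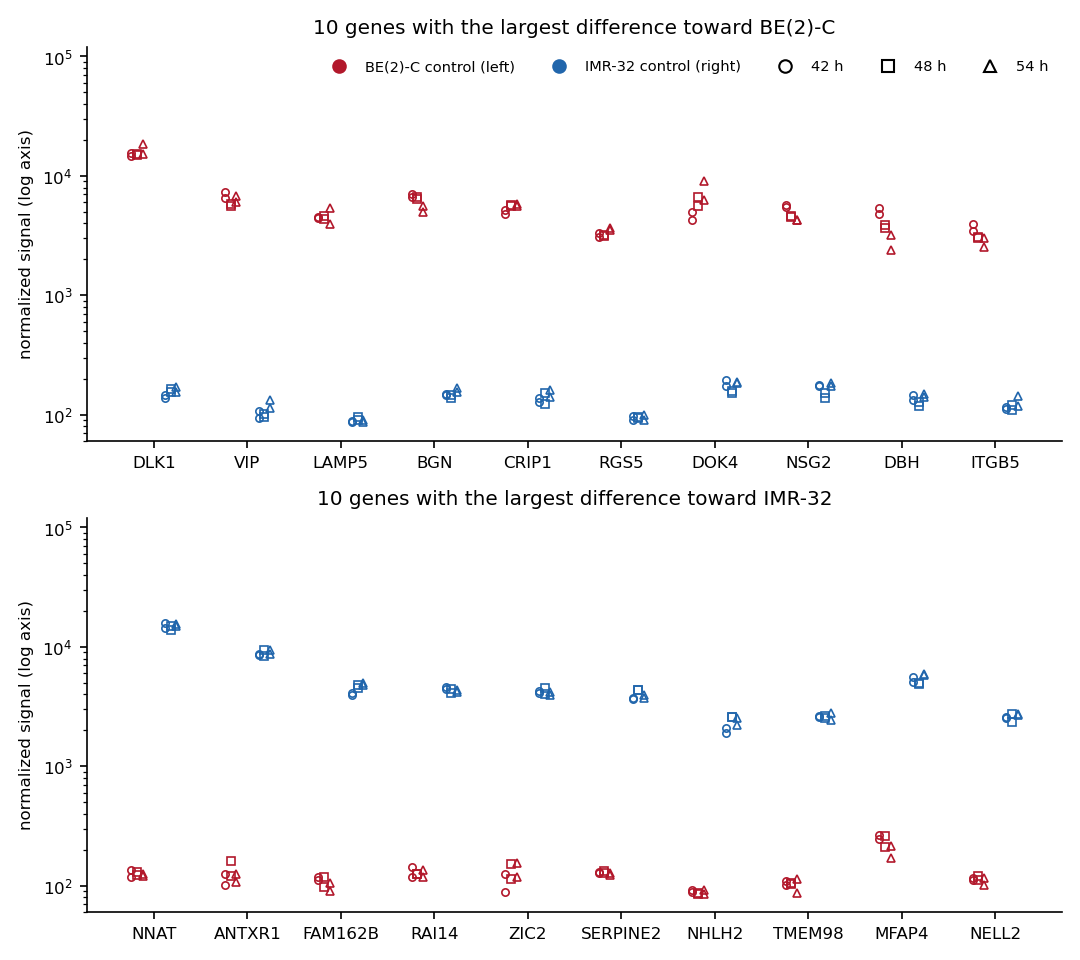
Normalized signal (log axis) on each of the 12 control arrays for the 10 genes with the largest log2 difference in each direction, with BE(2)-C arrays left of IMR-32 arrays for each gene and the symbol shape giving the time after transfection. DLK1 signals lie between 14606 and 18528 in BE(2)-C and between 139.7 and 172 in IMR-32. The genes were taken only among those whose arrays do not overlap between the lines, so that the gap is a condition of the choice.

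The transcription factors that set up the adrenergic state of neuroblastoma cells differed in both directions between the lines. Of 21 on the array, 9 were higher and 6 lower in BE(2)-C (all genes: 18.5% and 20.5%), 5 and 3 of them by at least 2-fold (all genes: 2.97% and 4.04%), with a median log2 difference of -0.021 (all genes: 0.0038). GATA2, a zinc finger factor of sympathetic neurons, had signals of 1216, 2078 and 3343 in BE(2)-C and 111, 116 and 129.8 in IMR-32 cells (4.06 ± 0.12, adjusted p = 2.36e-18), where 1 of 6 arrays detected it. Its relative GATA3 went the other way, with 468, 647 and 702 in BE(2)-C and 813, 877 and 922 in IMR-32 cells (-0.48 ± 0.078). The arrays of the lines did not overlap in either gene, though for GATA2 this held as for all 1404 genes at least 2-fold different.

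INSM1 and INSM2, paired zinc finger factors of neuroendocrine cells, also diverged. INSM2 had signals of 8775, 9324 and 11262 in BE(2)-C, against 884, 979 and 1241 in IMR-32 cells (3.26 ± 0.079), whereas INSM1 had 124, 130.2 and 146 in BE(2)-C and 1916, 2003 and 2199.5 in IMR-32 cells (-3.93 ± 0.061, 4 of 6 arrays). SOX11, a factor of immature sympathetic neurons, was lower in BE(2)-C, with 147, 151 and 171 against 1898, 1980.2 and 2118 in IMR-32 cells (-3.69 ± 0.06). Differences in the core factors were small beside these: HAND2 had a log2 difference of 0.61 ± 0.077, PHOX2A, a homeobox factor that turns on DBH, of 0.27 ± 0.064 and ISL1 of 0.18 ± 0.063 (adjusted p = 0.0396), and the calls of PHOX2A and ISL1 were lost under some alternatives. HAND1 (0.78 ± 0.064), EYA1 (1.83 ± 0.07) and TFAP2B (at least 6.20-fold) were higher, and SATB1 (at least 2.58-fold) and DACH1 (-0.91 ± 0.074) lower in BE(2)-C.

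The enzymes of noradrenaline synthesis were all higher in BE(2)-C. TH, tyrosine hydroxylase, the rate-limiting step, had signals of 683, 747 and 849 in BE(2)-C and 135, 168 and 180.4 in IMR-32 cells (2.24 ± 0.069). DDC, which makes dopamine from L-DOPA, had 3418, 3484 and 3797 in BE(2)-C and 659.7, 692 and 806 in IMR-32 cells (2.31 ± 0.064). DBH, dopamine beta-hydroxylase, which makes noradrenaline, had 2404, 3809 and 5399.9 in BE(2)-C, against 118, 137 and 150.3 in IMR-32 cells (4.80 ± 0.11, adjusted p = 2.73e-20). In none of these enzymes did the arrays of the lines overlap, as in none of the 1404 genes at least 2-fold different.

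Some genes of vesicle storage and uptake were higher in BE(2)-C as well, while a carrier and an enzyme of breakdown were lower. CYB561, the cytochrome that keeps ascorbate available to DBH inside the vesicle, had a log2 difference of 4.70 ± 0.074, 4 of 6 arrays, and the vesicular monoamine transporter SLC18A1 was at least 5.39-fold higher in BE(2)-C. SLC6A2, the noradrenaline transporter of the cell surface, had signals of 607, 654 and 844 in BE(2)-C and 157, 177 and 205 in IMR-32 cells (1.92 ± 0.078). MAOA, a monoamine oxidase, was detected on no BE(2)-C array and was at least 5.38-fold lower there, and SLC29A4, a low-affinity monoamine carrier, had 271, 347 and 385 in BE(2)-C, against 2736, 2942 and 3226 in IMR-32 cells (-3.16 ± 0.075). GCH1, which makes the cofactor of TH, had a log2 difference of -0.24 ± 0.089 (adjusted p = 0.0475), a call that 12 alternatives lost, and GCHFR, the feedback regulator of GCH1, one of -4.12 ± 0.077, 5 of 6 arrays. SLC18A2, the other vesicular monoamine transporter, was detected on none of the 12 arrays. Over the 13 members on the array, 6 were higher, all by at least 2-fold, 3 were lower, 2 of them by at least 2-fold, and 4 did not pass the test (all genes: 18.5% higher, 20.5% lower, at least 2-fold 2.97% and 4.04%).

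**Figure D3:**
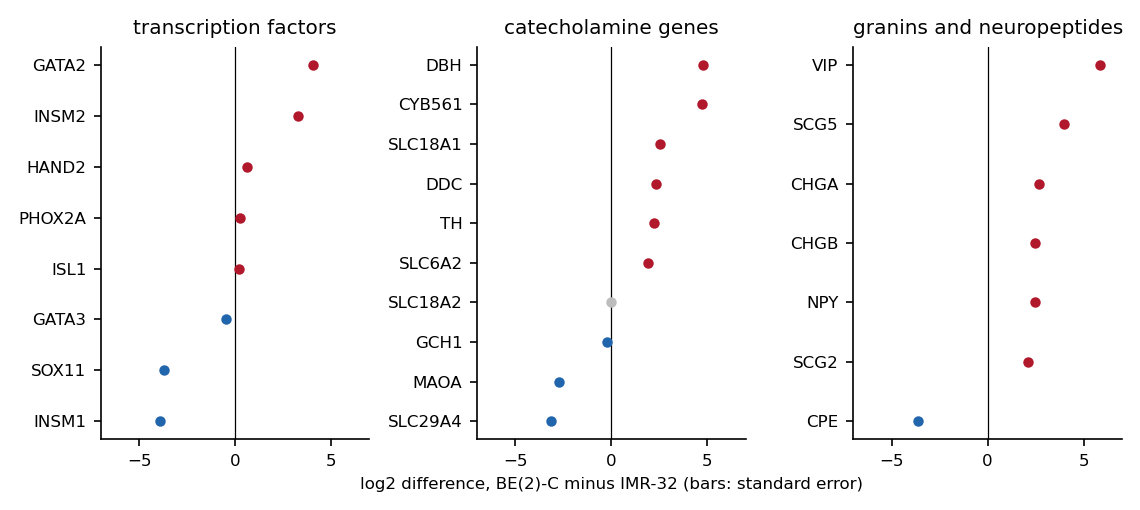
Log2 difference (BE(2)-C minus IMR-32, x axis) of named transcription factors, catecholamine genes, and granin and neuropeptide genes, with red for higher, blue for lower and grey for not called; error bars are standard errors of the limma fit and are mostly narrower than the points. DBH (4.80), CYB561 (4.70) and VIP (5.88) lie far to the right, and INSM1 (-3.93), SOX11 (-3.69) and SLC29A4 (-3.16) to the left, while points of genes that one line did not detect, such as MAOA and CPE, are fitted values.

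Granins, the acidic proteins that condense the content of dense-core vesicles, were higher in BE(2)-C together with several neuropeptides. CHGA, chromogranin A, had signals of 13985, 16138 and 17189 in BE(2)-C and 2336, 2508 and 2585 in IMR-32 cells (2.67 ± 0.062, adjusted p = 3.32e-20). CHGB had 5077, 5677 and 7685 in BE(2)-C and 939.7, 1056 and 1127 in IMR-32 cells (2.48 ± 0.08), and SCG2 6508, 7872 and 9126 in BE(2)-C and 1636, 1824 and 2019 in IMR-32 cells (2.10 ± 0.079). No BE(2)-C array reached down to an IMR-32 array in any of them, which held for all 595 genes at least 2-fold higher.

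Neuropeptide Y (NPY), released together with noradrenaline, had a log2 difference of 2.47 ± 0.068, and VGF, a granin-like precursor, one of 2.00 ± 0.092. Lower in BE(2)-C were galanin (GAL), with signals of 1092, 1237 and 1547, against 3421, 3896 and 4049 in IMR-32 cells (-1.58 ± 0.076), and CPE, the carboxypeptidase that trims prohormones, which was detected on no BE(2)-C array (at least 10.9-fold lower). Of 21 members on the array, 12 were higher, 9 of them by at least 2-fold, and 3 were lower, 2 of them by at least 2-fold. Over all genes 18.5% were higher and 20.5% lower, 2.97% and 4.04% by at least 2-fold. The median log2 difference of the list was 0.77 (all genes: 0.0038).

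Promoters of 3 of these genes are shown because CHGA, VIP and DBH were each higher in BE(2)-C and because cAMP response elements are a known feature of such genes. They are the 250 bases before the annotated start (RefSeq, GRCh38.p14, plus strand), with each match to TGACG, the core of that element, in capitals on either strand (CGTCA where it lies on the other strand).
CHGA, chr14:92922900-92923149: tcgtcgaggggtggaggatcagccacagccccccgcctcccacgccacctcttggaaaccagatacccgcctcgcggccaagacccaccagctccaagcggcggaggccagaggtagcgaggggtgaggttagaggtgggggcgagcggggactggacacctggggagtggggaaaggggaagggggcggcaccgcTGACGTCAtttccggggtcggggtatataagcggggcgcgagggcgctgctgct
VIP, chr6:152750547-152750796: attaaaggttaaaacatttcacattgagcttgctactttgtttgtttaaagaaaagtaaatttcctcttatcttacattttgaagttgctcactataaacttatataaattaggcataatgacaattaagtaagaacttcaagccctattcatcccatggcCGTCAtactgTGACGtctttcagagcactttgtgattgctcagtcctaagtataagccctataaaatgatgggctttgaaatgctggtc
DBH, chr9:133636113-133636362: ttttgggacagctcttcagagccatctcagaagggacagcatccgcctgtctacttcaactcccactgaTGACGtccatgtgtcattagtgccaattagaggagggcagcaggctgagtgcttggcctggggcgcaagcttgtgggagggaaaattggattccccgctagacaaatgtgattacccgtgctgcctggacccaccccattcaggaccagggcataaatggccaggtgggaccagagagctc
The CHGA promoter held the whole palindrome TGACGTCA, in which the 2 core matches overlap, and the others held the core alone. In the window of 250 bases before to 50 after the start, TGACG was found in 28.4% of 27305 genes and in 34.9% of the 15033 array genes with a promoter in the table. It was found in 6 of 10 catecholamine and granin genes at least 2-fold higher in BE(2)-C (of 15 such genes, 10 matched) and in 9 of 13 of the others (of 19). TGACGTCA was in 3.07% of the array genes, in 2 of those 10 and in 3 of those 13. A match is a stretch of letters and not a measured site.

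Genes of the neuronal cytoskeleton were split between the lines. Of 26 on the array, 9 were higher in BE(2)-C, 5 of them by at least 2-fold, and 14 were lower, 6 by at least 2-fold. The shares of all genes were 18.5% higher and 20.5% lower, and 2.97% and 4.04% with at least 2-fold. The list had a median log2 difference of -0.28. STMN2, a microtubule regulator of growing axons, had signals of 9791, 10668 and 11364 in BE(2)-C and 1072, 1247 and 1426 in IMR-32 cells (3.09 ± 0.072, adjusted p = 3.22e-20). The neurofilament subunits NEFM (2.29 ± 0.068) and NEFL (1.71 ± 0.081), the growth cone protein GAP43 (2.29 ± 0.078) and the dendritic MAP2 (2.02 ± 0.076) were higher in BE(2)-C too. Other genes of the list were higher in IMR-32: the axonal motor KIF5C had 430.0, 493 and 522 in BE(2)-C and 2504, 2696 and 2878 in IMR-32 cells (-2.47 ± 0.064). So were doublecortin (DCX, -1.34 ± 0.069), the RNA-binding proteins ELAVL4 (-1.62 ± 0.069) and ELAVL2 (at least 3.25-fold lower in BE(2)-C) and MAP1B (-1.05 ± 0.12). TUBB3, the neuronal tubulin, had 1999.6, 3763 and 4706 in BE(2)-C and 1964, 2170.5 and 2426 in IMR-32 cells (0.70 ± 0.12), and the arrays overlapped. For STMN1 (0.94 ± 0.068) another probe had the opposite call.

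Of 31 cadherins and neural adhesion molecules, 15 were higher in BE(2)-C and 5 lower (all genes: 18.5% higher, 20.5% lower), 8 and 2 of them by at least 2-fold (all genes: 2.97% higher, 4.04% lower). ALCAM, an immunoglobulin-type adhesion molecule, had signals of 2259.5, 2803 and 3967 in BE(2)-C and 249, 289.8 and 344 in IMR-32 cells (3.30 ± 0.092), and NRCAM had 1597, 1712 and 2078 in BE(2)-C and 194, 209 and 222 in IMR-32 cells (3.08 ± 0.066). CNTN2, a contactin of axons, was at least 6.29-fold lower, NCAM1 had a log2 difference of 0.63 ± 0.059 and N-cadherin (CDH2) one of -0.20 ± 0.06. L1CAM had 302, 386 and 1245 in BE(2)-C and 144, 155 and 164 in IMR-32 cells (1.55 ± 0.18), and its highest value belonged to replicate 1 at 54 h, the array that stood apart. Without that array the log2 difference of L1CAM was 1.27 (adjusted p = 3.58e-15).

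Of 43 semaphorins, plexins, slits and netrins, 10 were higher and 15 lower (all genes: 18.5% higher, 20.5% lower). SEMA6A, a transmembrane semaphorin, had signals of 1679.7, 1955 and 2138 in BE(2)-C and 213, 236 and 248 in IMR-32 cells (3.05 ± 0.064), and the semaphorin receptors PLXNA1 and NRP1 had log2 differences of 1.01 ± 0.065 and 1.67 ± 0.07. SEMA4F was lower (-2.41 ± 0.067, 2 of 6 arrays). Among ephrins, EFNB2 was at least 8.74-fold higher and EFNB3 was lower. Of 21 ephrin and Eph receptor genes, 3 were higher and 1 lower (all genes: 18.5% and 20.5%). The other 17 did not pass the test, and 11 of the 21 were detected on no array.

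Of 43 synaptic genes, 7 were higher in BE(2)-C and 17 lower (all genes: 18.5% higher, 20.5% lower), 3 and 7 of them by at least 2-fold (all genes: 2.97% higher, 4.04% lower). SYN2, a synapsin that tethers synaptic vesicles, had signals of 167, 211 and 234 in BE(2)-C and 690.1, 744 and 790.5 in IMR-32 cells (-1.85 ± 0.07), and the postsynaptic adhesion protein NLGN2 had a log2 difference of -1.57 ± 0.082. CPLX1, a complexin of vesicle fusion, was higher in BE(2)-C (1.43 ± 0.099), as was the glutamate receptor subunit GRIA4 (at least 2.23-fold). Of 38 genes of voltage-gated channels, 4 were higher and 10 lower (all genes: 18.5% higher, 20.5% lower). CACNB3, a calcium channel beta subunit, had 168, 206 and 237 in BE(2)-C and 1085, 1128 and 1186 in IMR-32 cells (-2.44 ± 0.069), and CACNA1H, a T-type pore subunit, was at least 4.20-fold lower, while the accessory subunit CACNA2D2 was higher (2.24 ± 0.081, 4 of 6 arrays). The cholinergic enzyme CHAT had a log2 difference of 0.014 (adjusted p = 0.931) and was detected on 1 array of each line. Of 19 cholinergic genes, 1 was higher and 4 lower (all genes: 18.5% and 20.5%). The other 14 did not pass the test, and 7 of the 19 were detected on no array.

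Growth factor receptors differed by member. Of 34 receptor tyrosine kinases and co-receptors, 8 were higher and 9 lower in BE(2)-C (all genes: 18.5% higher, 20.5% lower), 4 and 4 of them by at least 2-fold (all genes: 2.97% higher, 4.04% lower). RET, the kinase of the GDNF family receptors, was detected on no IMR-32 array and was at least 4.79-fold higher in BE(2)-C, with signals of 369.6, 598 and 739, against 100.4, 115 and 130.2 in IMR-32 cells. The ligand-binding co-receptors of that family ran opposite to it: GFRA2 had 412, 479 and 637 in BE(2)-C and 4929.9, 5331 and 5798 in IMR-32 cells (-3.45 ± 0.073), and GFRA1 was at least 5.18-fold lower in BE(2)-C. The PDGF receptors split as well, with PDGFRB higher (2.25 ± 0.069) and PDGFRA at least 2.43-fold lower. KIT, the stem cell factor receptor, had a log2 difference of -2.16 ± 0.064, 1 of 6 arrays. ALK, whose gene is partly amplified in IMR-32, had signals of 185, 198 and 243 in BE(2)-C and 225, 245 and 308 in IMR-32 cells (-0.29 ± 0.077, adjusted p = 0.00494), and the arrays overlapped. The neurotrophin receptors NTRK2 and NTRK3 were each detected on at most 2 arrays of a line and did not pass the test (adjusted p = 0.424 and 0.128).

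Among secreted factors, midkine (MDK), a heparin-binding factor of neural tissue, had 778, 1279.9 and 1442 in BE(2)-C and 5770.5, 6171 and 6337 in IMR-32 cells (-2.42 ± 0.097), and its relative PTN was higher in BE(2)-C (1.69 ± 0.061, 1 of 6 arrays). IGFBP2 (1.92 ± 0.085) was higher and IGFBP5 (-2.05 ± 0.082) lower, both binding proteins of insulin-like growth factors. In all, 10 of 35 growth factor genes were higher and 10 lower (all genes: 18.5% higher, 20.5% lower).

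Of 25 Notch pathway genes, BE(2)-C had 12 at a lower and 5 at a higher level (all genes: 18.5% higher, 20.5% lower), so that the higher ones were near the share of all genes. HES6, a bHLH factor that promotes neuronal differentiation, had signals of 583, 822 and 961 in BE(2)-C and 4011, 4177 and 4518 in IMR-32 cells (-2.43 ± 0.079), and HES4 had a log2 difference of -2.61 ± 0.068, 1 of 6 arrays. HEY1, a Notch target, was higher in BE(2)-C (1.66 ± 0.073), and so was HES1 (at least 1.37-fold), while the receptors NOTCH1 (-0.40 ± 0.067, 1 of 6 arrays) and NOTCH3 (at least 1.68-fold) were lower. Of 42 Wnt pathway genes, 14 were lower, 7 by at least 2-fold, and 9 higher, 2 by at least 2-fold (all genes: 18.5% higher, 20.5% lower, at least 2-fold 2.97% and 4.04%). AXIN2, a feedback target of beta-catenin, was detected on no BE(2)-C array and was at least 6.29-fold lower, FZD2, a Wnt receptor, had 194, 209 and 227 in BE(2)-C and 888, 1127 and 1226 in IMR-32 cells (-2.39 ± 0.074), and the ligand WNT3 was lower (-1.43 ± 0.065, 1 of 6 arrays).

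Of 37 genes of the TGF-beta and BMP pathway, 7 were higher and 12 lower (all genes: 18.5% and 20.5%; 5 and 15 under median scaling). BAMBI, a decoy receptor, was higher (1.39 ± 0.073) and SMAD6, an inhibitor of BMP signals (-1.06 ± 0.12), lower. The BMP targets ID1 (-1.01 ± 0.096) and ID3 (1.60 ± 0.078) differed in opposite directions. Retinoid genes held STRA6, the retinol carrier, as higher (2.19 ± 0.11, 5 of 6 arrays), and CRABP2 (-1.21 ± 0.072) and the retinoic acid hydroxylase CYP26B1 (at least 2.77-fold) as lower.

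Markers of the mesenchymal state, the other state in which neuroblastoma cells grow, did not run one way. Of 32, 5 were higher and 8 lower in BE(2)-C, with a median log2 difference of -0.015 (all genes: 18.5% higher, 20.5% lower). Fibronectin (FN1) was detected on no array of either line. Vimentin (VIM), an intermediate filament, was lower in BE(2)-C, with signals of 1632, 1714 and 1996, against 5845, 6196 and 6939 in IMR-32 cells (-1.81 ± 0.069), and the homeobox gene PRRX2 was at least 13.5-fold lower. Galectin 1 (LGALS1), with 1778, 2468 and 2609 in BE(2)-C and 154, 167 and 183 in IMR-32 cells (3.80 ± 0.075), and the calcium-binding protein S100A6 (3.21 ± 0.096) were higher. CD44, a hyaluronan receptor, was at least 1.66-fold higher and SNAI2, a zinc finger factor of migrating crest cells, was lower (-0.70 ± 0.08).

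The extracellular matrix list had 11 genes higher, 6 by at least 2-fold, and 13 lower, 7 by at least 2-fold, of 43 (all genes: 18.5% higher, 20.5% lower, at least 2-fold 2.97% and 4.04%). Beside BGN, TIMP1, an inhibitor of matrix proteases, had signals of 1114, 1869.6 and 2272 in BE(2)-C and 125, 138 and 147 in IMR-32 cells (3.74 ± 0.11), and decorin (DCN) was at least 6.28-fold higher, whereas COL4A1, a basement membrane collagen, was at least 4.21-fold lower. COL1A1, COL1A2 and COL3A1, the fibrillar collagens of fibroblasts, did not pass the test (adjusted p = 0.423, 0.812 and 0.650). DCN and LUM were also the 2 of the 5 fibroblast markers that all BE(2)-C arrays and no IMR-32 array detected, and the part of such cells in these differences was not tested. Of 26 integrin subunits, 3 were higher and 2 lower (all genes: 18.5% and 20.5%), with ITGB5 the 1 past 2-fold (all genes: 2.97% higher). The other 21 did not pass the test, and 9 of the 26 were detected on no array.

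Genes of the neural crest and of stem cells were lower in BE(2)-C by at least 2-fold in 9 of 29 cases and higher in 3 (all genes: 4.04% and 2.97%). CD24, a surface sialoglycoprotein of neural progenitors, had signals of 886, 979.6 and 1060.0 in BE(2)-C and 9430.0, 10423 and 11973 in IMR-32 cells (-3.43 ± 0.066, adjusted p = 1.04e-21). TFAP2A, a factor of early neural crest, was detected on no BE(2)-C array and was at least 3.79-fold lower, as was the RNA-binding protein MSI1 (at least 3.53-fold). Nestin (NES, -1.14 ± 0.067), IGF2BP2 (-1.82 ± 0.074, 4 of 6 arrays) and MSI2 (-2.03 ± 0.068, with another probe of the opposite call) were lower. LIN28B, which blocks the maturation of let-7 and drives neuroblastoma in mice, was higher in BE(2)-C, with 1964, 2147 and 2694, against 948, 981 and 1127 in IMR-32 cells (1.15 ± 0.06). SOX10, a Schwann cell and crest factor, was detected on no array.

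Of 29 HOX genes, which give cells their position along the body axis, 7 were higher in BE(2)-C, near the 18.5% of all genes. By at least 2-fold 2 were higher (all genes: 2.97%), and none was lower (all genes: 20.5% without a minimum fold). Under median scaling 5 were higher and 1 lower. The HOXC cluster held most of the named ones: HOXC8 had signals of 1466, 1621 and 1808 in BE(2)-C and 195, 224 and 243 in IMR-32 cells (2.90 ± 0.061), HOXC6 1552, 1644 and 1786 in BE(2)-C and 639.7, 751 and 877 in IMR-32 cells (1.15 ± 0.07), and HOXC9 a log2 difference of 0.19 ± 0.059. The TALE cofactors with which HOX proteins bind DNA were lower in 8 of 10 cases and higher in 1 (all genes: 18.5% higher, 20.5% lower), with a median of -0.69. MEIS1 had 307, 353 and 374 in BE(2)-C and 2782, 3228 and 3421 in IMR-32 cells (-3.19 ± 0.068), and its relative MEIS2 was the 1 that was higher, with 1650.4, 1879.8 and 2379 in BE(2)-C and 248, 311 and 324 in IMR-32 cells (2.71 ± 0.079). In neither gene did the lines overlap, as in none of the 1404 genes at least 2-fold different.

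MYCN was bright in both lines. Its signals were 20283, 21835 and 23031 in BE(2)-C and 18587, 19168 and 19825 in IMR-32 cells (0.17 ± 0.058, adjusted p = 0.0296), without overlap of the arrays, but the call was lost under 9 of the alternatives. MYC was detected on no BE(2)-C array and on 1 IMR-32 array (adjusted p = 0.763). No member of the MYC family list of 13 differed by 2-fold.

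Some genes near MYCN on chromosome 2 had larger differences than MYCN, though the median of 13 neighbours was -0.18. DDX1, an RNA helicase gene next to MYCN, had signals of 5414, 5959.5 and 6974 in BE(2)-C and 19337, 21162 and 22276 in IMR-32 cells (-1.79 ± 0.064). NBAS, a vesicle transport gene on the other side of DDX1, had 217, 251 and 312 in BE(2)-C and 4196, 4767 and 5883 in IMR-32 cells (-4.25 ± 0.073, adjusted p = 1.27e-22). MYCNOS, the antisense gene of MYCN, ran the other way (0.75 ± 0.078), as did TRIB2, a pseudokinase (1.26 ± 0.072). Of the 13, 7 were lower, 2 higher and 4 did not pass the test (all genes: 18.5% higher, 20.5% lower). Copy number was not measured here.

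Of 30 target genes of p53 on the array, 17 were lower in BE(2)-C, 8 of them by at least 2-fold, and 1 was higher (all genes: 20.5% lower, 4.04% by at least 2-fold, 18.5% higher), with a median log2 difference of -0.28. CDKN1A, the p21 inhibitor of cyclin-dependent kinases, had signals of 229, 247 and 311 in BE(2)-C and 2657, 2741 and 2896 in IMR-32 cells (-3.42 ± 0.067, adjusted p = 1.27e-21). TNFRSF10B, the death receptor DR5, had 125, 159 and 168 in BE(2)-C and 1486, 1561 and 1656 in IMR-32 cells (-3.37 ± 0.07, 5 of 6 arrays), and GADD45A, a stress sensor, 195, 234 and 249.8 in BE(2)-C and 1243, 1303 and 1496 in IMR-32 cells (-2.54 ± 0.069). All 3 were without overlap between the lines, as were all 809 genes at least 2-fold lower.

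PMAIP1 (NOXA, -1.34 ± 0.073), the phosphatase PPM1D (-1.22 ± 0.058), PHLDA3 (at least 1.99-fold), RPS27L (-1.03 ± 0.065) and the repair factor XPC were lower by about 2-fold or more, and CCNG1 (-0.79 ± 0.076) and TP53INP1 (-0.85 ± 0.077) by less. Other classical targets hardly differed: BAX had a log2 difference of -0.28 ± 0.074, and BBC3 (PUMA) did not pass the test (0.12 ± 0.071, adjusted p = 0.280). MDM2, the ubiquitin ligase of p53, had 113, 124 and 146 in BE(2)-C and 131, 142 and 154 in IMR-32 cells (-0.20 ± 0.069, 1 of 6 arrays, adjusted p = 0.0347). That call was lost under 8 alternatives, and so near the background the levels of MDM2 could hardly be compared. GADD45A and PPM1D lie in stretches of chromosomes 1 and 17 in which most genes were lower.

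CDKN2A, whose products are p16 and p14ARF, was higher in BE(2)-C. Its signals were 224, 479 and 556 in BE(2)-C and 99.0, 119 and 125 in IMR-32 cells, where no array detected it (at least 3.69-fold), and the lowest BE(2)-C value was that of replicate 1 at 54 h. Among apoptosis genes BCL2 was higher (1.07 ± 0.069) and the death receptor TNFRSF1A (at least 2.66-fold), the BH3-only gene HRK (-1.79 ± 0.09, 2 of 6 arrays) and MCL1 (-0.88 ± 0.068) were lower. CASP8, the initiator caspase of death receptors, was detected on no array of either line.

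Of 25 genes of the G1 phase, 2 were higher in BE(2)-C and 13 lower (all genes: 18.5% higher, 20.5% lower), with a median log2 difference of -0.33. In each direction 1 reached 2-fold (all genes: 2.97% higher, 4.04% lower). CCND1, cyclin D1, had signals of 5047, 5583 and 6297 in BE(2)-C and 8642, 10153 and 10399 in IMR-32 cells (-0.81 ± 0.065), and CDK2 had 746, 781 and 826 in BE(2)-C and 1599.8, 1901 and 2072 in IMR-32 cells (-1.27 ± 0.062). Mitotic genes were detected on all arrays of both lines, 31 of 31, and none differed by 2-fold. Of these, 10 were higher and 6 lower (all genes: 18.5% and 20.5%), but 4 were higher and 10 lower under median scaling, so that their balance depended on the normalization. Replication genes split 15 higher to 16 lower of 45 (all genes: 18.5% and 20.5%), or 8 to 17 under median scaling, with GINS2 higher (1.36 ± 0.074) and ORC1 lower (-1.46 ± 0.061). In DNA repair, 10 of 23 genes were lower (all genes: 20.5%), among them MSH6 (-1.26 ± 0.063) and BRCA1 (-1.03 ± 0.072), and 5 higher (all genes: 18.5%), or 3 under median scaling.

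Cell cycle genes that the study follows after HDAC11 depletion differed little between the control cells. DLGAP5 was higher (0.64 ± 0.062), CCNE1 (-0.33 ± 0.067) and UHRF1 (-0.19 ± 0.064, adjusted p = 0.0277) were lower, and CENPA, CENPE, KIF14, KIF23, MAD2L1 and RACGAP1 did not pass the test, with adjusted p between 0.0827 (RACGAP1) and 0.893 (CENPA). The call of UHRF1 was lost under 5 alternatives, and RACGAP1 and KIF23 passed under 3 each and CENPE and MAD2L1 under 1 each. HDAC11 itself was detected on no BE(2)-C array and on 2 IMR-32 arrays, with signals of 105, 114 and 128 and 114, 122 and 138, so that its level could not be compared. Of 18 histone deacetylases and sirtuins none differed by 2-fold. HDAC2 was lower in BE(2)-C, with 3797, 4122 and 4992, against 6732, 7216 and 7361 in IMR-32 cells (-0.75 ± 0.067), and HDAC1 (0.37 ± 0.067) and HDAC4 (0.49 ± 0.072) were higher.

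Of 31 genes of glycolysis and hypoxia, 14 were higher in BE(2)-C and 8 lower (all genes: 18.5% higher, 20.5% lower). By at least 2-fold 1 was higher and 5 lower (all genes: 2.97% and 4.04%). The median log2 difference was 0.048, or -0.05 under median scaling. LDHA, which turns pyruvate into lactate, had signals of 1002, 1123 and 1306 in BE(2)-C and 12027, 12639 and 13115 in IMR-32 cells (-3.49 ± 0.066, adjusted p = 7.77e-22). HK2, a hexokinase, had 241, 355 and 390.0 in BE(2)-C and 2361, 2623 and 2725 in IMR-32 cells (-2.95 ± 0.083), and PFKP, a phosphofructokinase, was lower too (-1.71 ± 0.062). The hypoxia targets CA12 (at least 2.37-fold) and BNIP3L (-1.04 ± 0.069) were the other 2 past 2-fold in that direction. GPI, the isomerase between the steps of HK2 and PFKP, was higher in BE(2)-C (1.30 ± 0.061), as was PGAM1 (0.94 ± 0.085).

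Among ABC transporters, a family that holds drug efflux pumps and other carriers, several were higher in BE(2)-C. ABCB1, the multidrug efflux pump P-glycoprotein, had signals of 1434, 1588 and 1805 in BE(2)-C and 108, 122 and 144 in IMR-32 cells (log2 difference 3.72 ± 0.071, 1 of 6 arrays, adjusted p = 9.82e-22). Under quantile normalization 11 of 24 ABC transporters were higher and 4 lower (all genes: 18.5% higher, 20.5% lower), and under median scaling 8 were higher and 4 lower. By at least 2-fold 5 were higher and none lower (all genes: 2.97% and 4.04%). ABCC3 (1.85 ± 0.069, 1 of 6 arrays), ABCC5 (1.11 ± 0.078), ABCG1 (1.52 ± 0.062, 1 of 6 arrays) and ABCC9 (at least 2.47-fold) were the other 4. AKR1C3, an aldo-keto reductase of steroids and drugs, was at least 10.8-fold higher, and the glutathione transferases MGST2 and GSTT2 at least 10.9-fold and 5.18-fold, while GSTM2 was lower (-1.93 ± 0.062). Over all 35 detoxification genes 9 were higher and 13 lower (all genes: 18.5% higher, 20.5% lower). Sterol synthesis genes split evenly, 7 higher and 7 lower of 20 (all genes: 18.5% and 20.5%), with none at 2-fold.

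Some genes of antigen presentation were higher in BE(2)-C. B2M, the light chain of class I molecules, had signals of 8160.3, 8744 and 9138 in BE(2)-C and 2388, 2758 and 2913 in IMR-32 cells (1.67 ± 0.062), and of 18 genes 8 were higher in BE(2)-C and none lower (all genes: 18.5% higher, 20.5% lower). The immunoproteasome subunit PSMB10 (1.09 ± 0.076) and HLA-F (1.19 ± 0.074) were higher as well. HLA-B and HLA-C were detected on at most 3 arrays of a line and did not pass the test, TAP1 was detected on none, and probes of HLA genes can share sequence with each other and are uncertain. Of 33 interferon genes 11 were higher and 5 lower (all genes: 18.5% higher, 20.5% lower), with OAS3 at least 4.74-fold higher and IFI44 lower (-2.76 ± 0.072, 3 of 6 arrays).

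Of 21 genes of GD2 synthesis and surface targets of therapy, 3 were higher in BE(2)-C, 9 lower and 9 did not pass the test (all genes: 18.5% higher, 20.5% lower), with a median log2 difference of -0.11. SSTR2, the somatostatin receptor, had signals of 242, 272 and 333 in BE(2)-C and 4959, 5294 and 5399.9 in IMR-32 cells (-4.25 ± 0.068, adjusted p = 4.09e-23), and the glypican GPC2 had 201, 265 and 299 in BE(2)-C and 1438, 1632 and 1778 in IMR-32 cells (-2.63 ± 0.074). B4GALNT1, the enzyme that makes GD2 from GD3, was lower (-0.63 ± 0.079), ST8SIA1, which makes GD3, was detected on 1 of 12 arrays, and CD276 (B7-H3) did not pass the test (adjusted p = 0.299). THY1 was higher in BE(2)-C (1.87 ± 0.058).

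Imprinted genes held the extremes of both directions, DLK1 and NNAT. Of 21, 6 were higher, all by at least 2-fold, 7 were lower, 1 by at least 2-fold, and 8 did not pass the test. The shares of all genes were 18.5% higher and 20.5% lower, and 2.97% and 4.04% with at least 2-fold. Beside DLK1 and MEG3, PEG10 (1.75 ± 0.084) and its neighbour SGCE (1.31 ± 0.072), NDN (at least 2.67-fold) and IGF2 (at least 2.00-fold) were higher in BE(2)-C, and PEG3 (at least 1.75-fold) was lower. Among cancer-testis genes PAGE1 was at least 17.9-fold lower and MAGED1 higher (1.42 ± 0.067). In the region lost in neuroblastoma, 1p36, 5 of 20 genes were higher and 5 lower (all genes: 18.5% higher, 20.5% lower), or 3 and 6 under median scaling. KIF1B (-1.07 ± 0.07, another probe opposite) was the 1 of them past 2-fold (all genes: 4.04% lower). Detected genes at the start of chromosome 1 lay more toward BE(2)-C. The running median over 31 genes was 0.38 at SSU72, the first gene with a full window, and 0.20 at UBE4B. Genes used as references in expression studies were not level either: RPL13A (1.18 ± 0.062), SDHA (1.19 ± 0.069) and TBP (-0.67 ± 0.065) differed between the lines under quantile normalization, median scaling and background correction alike.

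**Figure D4:**
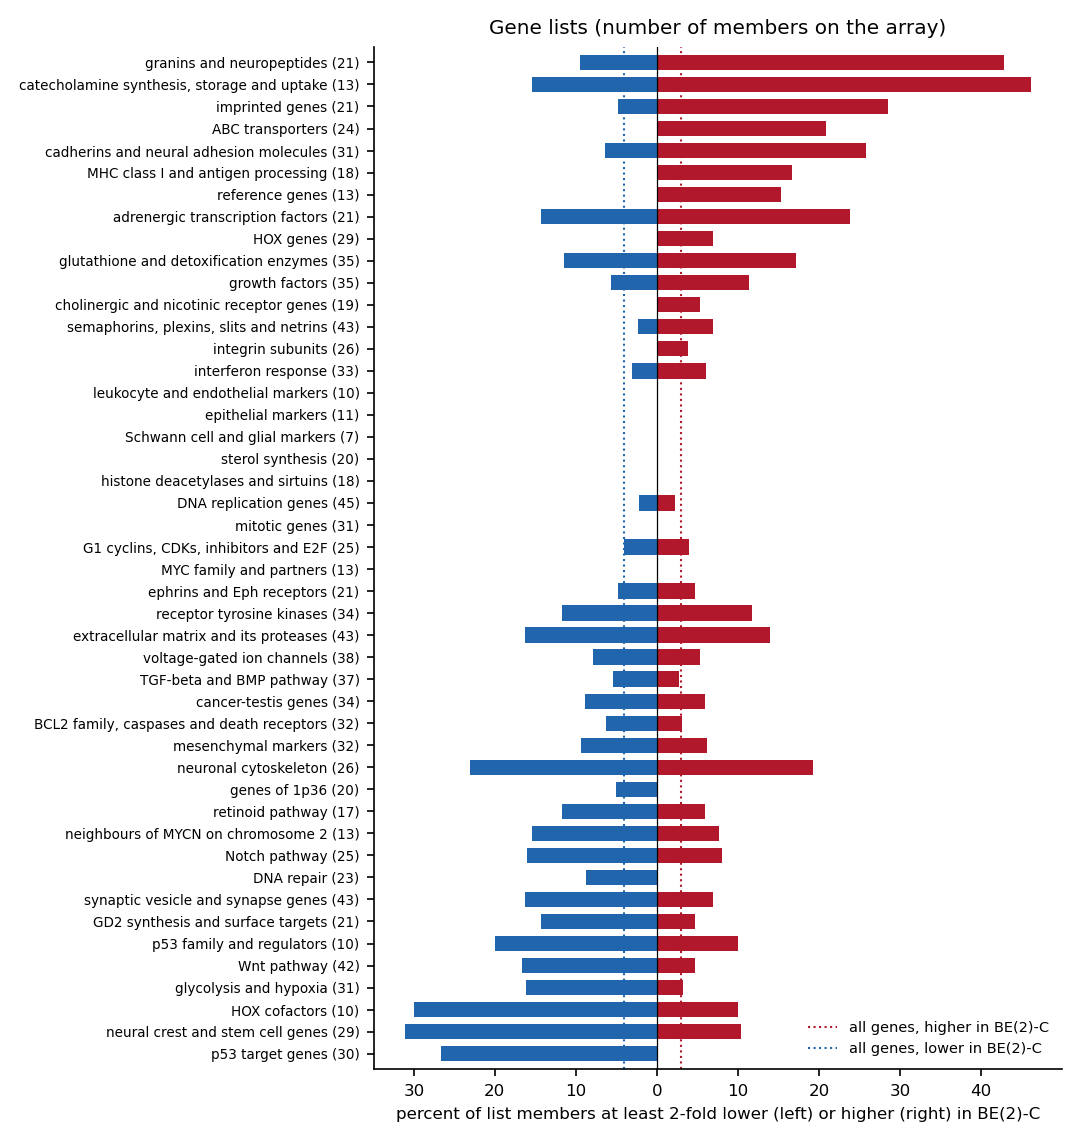
Share of the members of 46 gene lists that were at least 2-fold lower (left, blue) or higher (right, red) in BE(2)-C than in IMR-32, ordered by the difference of those shares, with the number of members on the array in parentheses and dotted lines at the shares of all genes (4.04% lower, 2.97% higher). Catecholamine and granin genes reach farthest to the right, and neural crest genes, HOX cofactors and p53 targets to the left.

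Differences were not spread evenly over the chromosomes. Over genes detected on all 12 arrays, the median log2 difference was -0.41 on chromosome 17, where 22.2% of 514 genes lay above 0, and -0.42 on chromosome 18, where 13.4% of 112 did. Chromosomes 6 (-0.25), 12 (-0.22) and 2 (-0.12) were also on the side of IMR-32. Under median scaling every chromosome had a lower median, a shift that cannot turn a negative sign. It turned the medians of chromosomes 10 (0.09 to -0.04), 13 (0.06 to -0.06) and 21 (0.06 to -0.05). The highest medians were those of chromosomes 16 (0.24), 8 (0.21) and 5 (0.20). At least 2-fold lower were 104 genes of chromosome 17 (8.93%) and 96 of chromosome 2 (7.74%; all genes: 4.04%), and at least 2-fold higher were 52 of chromosome 16 (6.47%; all genes: 2.97%).

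Within chromosomes, stretches of neighbouring genes deviated together. Stretches were taken as 40 or more detected genes in the order of RefSeq (GRCh38.p14) whose running median stayed beyond 0.5 in log2. That median ran over 31 genes, or fewer at chromosome ends. The rule was set after the values were seen, so that no test applies. On chromosome 2, the 106 detected genes between FBXO11 and EIF2AK3 had a median of -0.89, and 93 of them lay below 0. That stretch holds ANTXR1, MEIS1, HK2, SEMA4F and CYP26B1. At least 2-fold lower were 49 of its 221 genes on the array (22.2%; all genes: 4.04%), in a stretch chosen for its low running median. On chromosome 1, the 102 detected genes between BEND5 and CNN3 had a median of -0.86, with 96 below 0, among them GADD45A, ELAVL4 and ORC1.

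On chromosome 17 there were 2 such stretches, 48 detected genes between VAT1 and PHB1 with a median of -0.66 (BRCA1, FZD2 and WNT3 lie in it) and 92 between SCPEP1 and TEN1 with a median of -0.61. The second stretch holds PPM1D, AXIN2 and SSTR2, which were lower, and also CYB561, which was among the 20 genes with the largest difference toward BE(2)-C. The only stretch toward BE(2)-C lay at the end of chromosome 16, 66 genes between AP1G1 and DRC4 with a median of 0.73 and 61 above 0. The medians of the 5 stretches were -0.81 to -0.99 for chromosomes 1 and 2, -0.66 to -0.79 for chromosome 17 and 0.61 to 0.81 for chromosome 16 in arrays of the HDAC11 siRNAs and under median scaling.

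**Figure D5:**
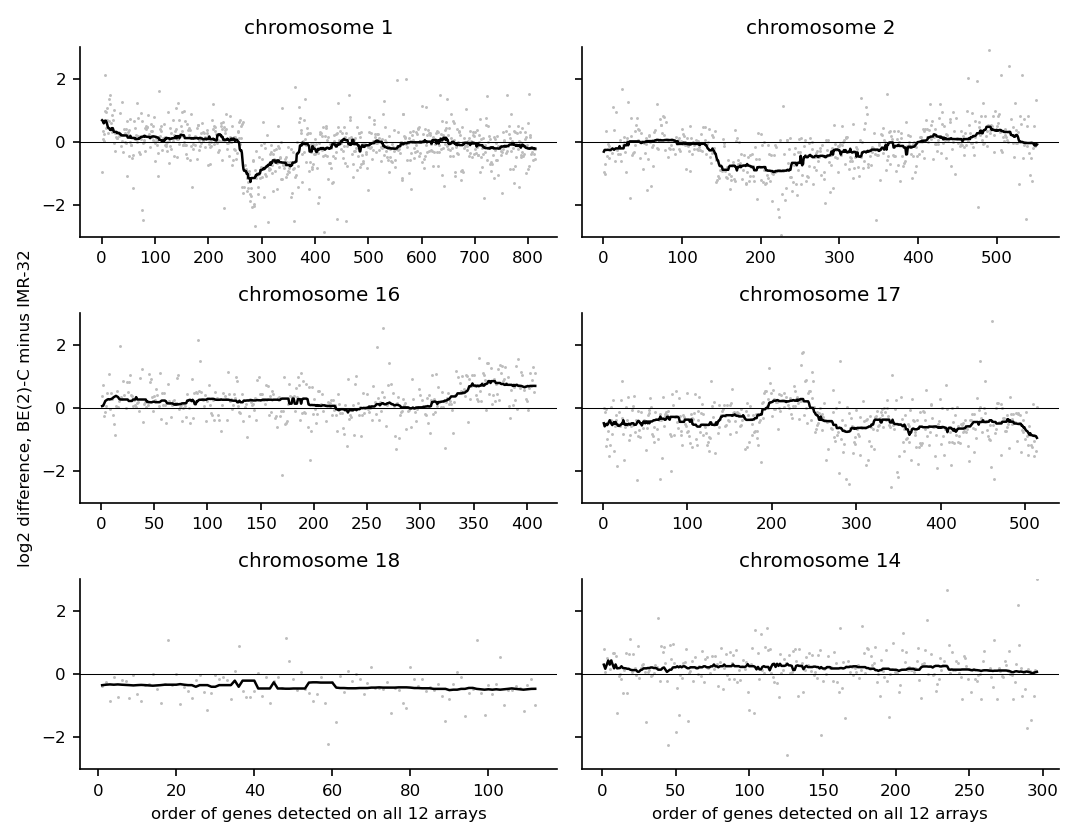
Log2 difference (BE(2)-C minus IMR-32, y axis) of genes detected on all 12 arrays, in their order along 6 chromosomes (x axis, rank and not distance). The running median of 31 genes, or fewer at chromosome ends, is drawn as a line, and a few genes beyond the axis are not drawn. The line dips on chromosomes 1, 2 and 17, lies below 0 along chromosome 18 and rises toward the end of chromosome 16, while chromosome 14 stays near its median of 0.18.

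Similar numbers of genes differed between the lines at each time after transfection. At 42 h, 2721 genes were higher and 2913 lower, at 48 h 2666 and 3112, and at 54 h 2800 and 3324, with 2 arrays against 2. The line difference at 54 h minus that at 42 h passed the test toward BE(2)-C in 50 genes and toward IMR-32 in 70 (limma, adjusted p under 0.05). Over all times together, a dependence of the line difference on time passed in 22 genes (0.11%; moderated F of limma, adjusted p under 0.05). With 2 arrays per group, genes that did not pass are not shown to have kept their difference. MCRIP2 had log2 differences of 1.23 at 42 h, 2.40 at 48 h and 2.27 at 54 h (adjusted p = 0.00761), and HOXC4 0.18, 0.71 and 1.41 (adjusted p = 0.0376). OAS3, which no IMR-32 array detected, followed a like course with 1.77, 2.24 and 2.78, and LMNA, the gene of lamin A, an opposite one with 2.46, 2.04 and 1.41. DHX9, an RNA helicase, had -0.43, 0.59 and 0.91. The number of genes that passed the F rested on single arrays: it was 1253 without replicate 2 of BE(2)-C at 54 h and 16 without replicate 1 of that group. Without replicate 2 of BE(2)-C at 42 h it was 0, so that these courses are given as values.

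The array that stood apart touched single values more than calls. The median standard deviation over 6 arrays of genes detected everywhere was 0.152 in log2 for BE(2)-C, against 0.0944 for IMR-32. Without that array 3811 genes were higher and 4210 lower, 592 and 797 by at least 2-fold, and all 1404 genes passed the adjusted p again in the same direction.

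The arrays of the HDAC11 siRNAs, which the comparison did not use, gave a repeat of it in other samples of the same lines. In the 12 arrays of HDAC11 siRNA no. 1, 594 of the 595 genes at least 2-fold higher in BE(2)-C (99.8%) and 808 of the 809 lower ones (99.9%) passed again in the same direction, and in the 12 arrays of siRNA no. 2, 593 and 808 did. None of these genes passed in the opposite direction. Of all genes called without a minimum fold, 81.1% of those higher and 86.7% of those lower passed again with siRNA no. 1, and 82.2% and 88.1% with no. 2. Some passed in the opposite direction, 54 of those higher and 63 of those lower with siRNA no. 1, and 10 and 14 with no. 2. ABCB1 shows that single levels could still move, with a log2 difference of 4.59 in the arrays of siRNA no. 1 and 3.55 in those of no. 2, against 3.72 in the controls.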

How the data were processed

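RNA of the 12 control arrays was measured on Illumina HumanHT-12 BeadChips. Per the study's methods, the authors dropped bead values far from the median of their probe and averaged the rest, and the intensity values used here are their deposited non-normalized table of all 36 arrays, with a detection p-value beside each intensity as the authors' software gave it. The deposited table of the series matrix holds log2 values of the same arrays and served as an alternative. No source used here gives slides or scan dates.

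Of 47323 probes, 3 with blank or zero cells were left out. The 12 arrays were quantile-normalized and the log2 values entered a fit in limma 3.58.1 under R 4.3.3 (time after transfection as a block plus cell line, Benjamini-Hochberg adjustment over 47320 probes). A gene was called at an adjusted p under 0.05, in part with a difference of at least 2-fold. A gene was named by 1 symbol in the platform annotation, updated to RefSeq, for 30113 probes, while 8 probes had several symbols and 17202 none. Each of 20045 genes was read by its brightest probe, 6691 of them having more than 1. Detection was a detection p under 0.01 with a signal above the median of probes with a detection p over 0.98. Scripts were tested on simulated data. Figures were drawn with matplotlib 3.10.9.

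Named were the 20 genes with the largest difference in each direction, among genes at least 2-fold different without overlap of the lines. In each of 46 lists, its preset members and up to 4 more with the largest differences were named. The genes and lists were chosen with earlier results of these data known. TFAP2B, HAND1, EYA1, SATB1, DACH1, VGF, GAL, PHLDA3, RPS27L, XPC, CCNG1, TP53INP1, CA12, BNIP3L, PGAM1, ID1, ID3, NES, IGF2BP2, MAP1B, STMN1, HOXC9, PEG3, SGCE, MCRIP2, DHX9, LMNA, NGFR, CD34 and CD68, and MPST, VPS16, ALDOC and ABCA3 among the time courses, were named after their values were seen. Alternatives were other normalizations, background correction, filters, blocks and thresholds, and leaving out each array.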

Additional observations from a re-analysis of the deposited data

Results flagged for a closer look

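Single arrays lay far from the other 5 of their line in 34 of 496 tests of the named genes (Dixon's test at its 95% critical value), and chance flags about 1 in 20 groups. In 21 of these the array was replicate 1 of BE(2)-C at 54 h, the array that stood apart over all probes. Its signal was above those of the other BE(2)-C arrays for DLK1 (18528, others 14606 to 15475), ITGAV (858, others 429.6 to 509), L1CAM (1245, others 302 to 426), MAD2L1 (5024, others 2925 to 3330.5), NBN (641, others 468 to 505), RELN (3629.8, others 2499 to 2682), RERG (2843, others 1612 to 1962), SC5D (1120.4, others 726 to 850.1) and SLC6A2 (844, others 607 to 658). It was below them for CACNA2D2 (446, others 596 to 701), CCNE1 (300.2, others 365 to 410.0), CDKN2A (224, others 453 to 556), GATA3 (468, others 613 to 702), HDAC4 (197, others 236 to 253), LGALS1 (1778, others 2315 to 2609), MYCNOS (1011, others 1357 to 1565), NDN (244, others 311 to 345), PSMB10 (1942, others 2476 to 2741), RXRB (376, others 586 to 729.7), S100A6 (1843, others 2668 to 3172) and TIMP1 (1114, others 1775 to 2272). In other BE(2)-C arrays such values were found for CHGB (7685 at 42 h, replicate 1, others 5077 to 5883), MGA (207 at 42 h, replicate 2, others 264 to 287) and NCAM1 (851 at 42 h, replicate 1, others 715 to 763). In IMR-32 arrays they were found for FZD2 (888 at 48 h, replicate 2, others 1087 to 1226), KCNS3 (249 at 48 h, replicate 1, others 184 to 203), MAP2 (214 at 42 h, replicate 2, others 178 to 189.8), MOK (232 at 54 h, replicate 2, others 189.5 to 203), MYCNOS (926 at 48 h, replicate 1, others 754 to 803), PKNOX2 (205 at 42 h, replicate 1, others 184 to 189), RPL13A (3520.0 at 42 h, replicate 1, others 3712 to 3769), CCNG1 (3109.8 at 48 h, replicate 1, others 2419 to 2617), CA12 (325 at 54 h, replicate 2, others 265 to 285) and HOXC9 (180.3 at 48 h, replicate 1, others 152 to 161). The cause was not tested.

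The difference between the lines depended on time in these named genes (difference at 54 h minus that at 42 h, in log2, with the adjusted p of the moderated F of limma over 3 times): HOXC4 (1.23, adjusted p = 0.0376), MDK (0.79, adjusted p = 0.0496), OAS3 (1.01, adjusted p = 0.0376), MCRIP2 (1.03, adjusted p = 0.00761), MPST (0.94, adjusted p = 0.0255), DHX9 (1.34, adjusted p = 0.0376), LMNA (-1.06, adjusted p = 0.0459), VPS16 (-1.01, adjusted p = 0.0376), ALDOC (-1.03, adjusted p = 0.0379) and ABCA3 (-1.13, adjusted p = 0.0408). Which of them passed depended on single arrays.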

How the results depend on the processing

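Counts of genes higher and lower in BE(2)-C stayed within 1.5 times of 3717 and 4117 under every normalization, filter, block and threshold tried and without any 1 array, and no named gene changed direction. Of 325 named genes, 25 changed their call under at least 1 alternative, all with a log2 difference under 0.5. The medians of 41 of the 46 lists moved by more than the spread between array pairs under at least 1 alternative. The exceptions among counts were those on time. The 22 genes with a line difference that depended on time became 2 under median scaling, 0 with normexp background correction, 1 with detected probes only and 1 at an adjusted p under 0.01, and 0 to 1253 when single arrays were left out. At an unadjusted p under 0.05 there were 2156. Genes called higher at 54 h numbered 1831 under median scaling, against 2800. The normexp correction took the background from probes with a detection p over 0.5, since the detection p is two-sided, which was chosen after the data were seen. With a replicate block within time points 3652 genes were higher and 4052 lower. Deviations of same-numbered arrays correlated at 0.0175, 0.0071 and 0.0004 over all probes at 42, 48 and 54 h. Over bright probes the values were 0.059, 0.049 and -0.023. Such correlations cannot show whether same-numbered arrays were handled together. Signal over background limits what can be seen: 6095 genes were detected on no array.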
